A study of Mus musculus with 24 samples.

Results

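The RNA sequencing compared mouse embryonic fibroblasts (MEFs) that had lost Myc, Mlx or both, and the genes described here are 10 markers of macrophages that were present in those cultures: Ptprc, Cd53, Laptm5, Tyrobp, Fcer1g, Csf1r, Adgre1, Itgam, Cd68 and Lyz2. They make up 10 of the 41710 genes listed for each library. The list was chosen from measured values of the same libraries, because Laptm5 was among the genes with the lowest level in primary MycKO cells relative to wild-type (WT) cells. For that reason the levels in primary WT, MycKO, MlxKO and DKO cells are given below as a description wherever a WT or MycKO library takes part, and tests are kept for primary DKO against MlxKO cells and for the immortalized cells. There were 24 libraries, 3 for each of 8 groups.

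All groups were made from pooled embryos of embryonic day 14 to 16 that carried floxed alleles of Myc, Mlx or both and a transgene for a Cre recombinase-estrogen receptor fusion (CreER) driven by the ROSA26 promoter, which is active in nearly all cell types. Excision was started with 500 nM 4-hydroxytamoxifen (4OHT) to give MycKO, MlxKO and double-knockout (DKO) cells. WT denotes cells with intact loci, and primary WT cells received the ethanol vehicle. Since CreER is not limited to fibroblasts, any macrophage in a culture carried the same alleles and met the same 4OHT. Immortalized groups came from the same kinds of floxed MEFs, first transduced with a lentivirus for SV40 T-antigen and selected with blasticidin. Their target genes were excised afterwards by a longer exposure to 4OHT, while immortalized WT cells were kept in medium without 4OHT. The libraries of a group are described by the study as biological replicates, but separate embryo pools are not stated for them, so p-values measure the spread between these libraries, which may in part be technical. Genotype and embryo pool cannot be told apart in comparisons between knockouts. The study used a single floxed line as WT control in most cases, and which line gave these WT libraries is not stated. The knockout made from that line would share its embryo pool with WT, and for the others genotype and pool cannot be told apart. Genotype and 4OHT exposure cannot be told apart in comparisons with WT, whereas MycKO, MlxKO and DKO cells had all received 4OHT.

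Macrophages of the embryo arise from yolk sac and fetal liver progenitors and settle in nearly every tissue, and a culture made from whole minced embryos takes some of them along. They live on signals through CSF1R, the receptor for colony-stimulating factor 1 and interleukin 34, and fibroblasts are a well-known source of CSF1. Their gene program depends on the transcription factor PU.1, encoded by Spi1. Activating receptors of macrophages signal through small adaptors, TYROBP (DAP12) and the Fc receptor gamma chain FCER1G, whose phosphorylated ITAM motifs recruit the kinase SYK.

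Because PU.1 binds purine-rich sites near the starts of many myeloid genes, 4 of the members' upstream windows are shown: that of Laptm5, on which the list was built, that of Lyz2, the most abundant member, that of Itgam, which behaved differently from the others in DKO cells, and that of Cd68, the only member that passed the filter on low values in immortalized cells. The sequences are the 250 bases before the start in RefSeq (build GRCm38.p6), written 5′ to 3′, with each copy of the letters GAGGAA or, on the other strand, TTCCTC in capitals.
Laptm5 chr4:130913066-130913315, plus strand: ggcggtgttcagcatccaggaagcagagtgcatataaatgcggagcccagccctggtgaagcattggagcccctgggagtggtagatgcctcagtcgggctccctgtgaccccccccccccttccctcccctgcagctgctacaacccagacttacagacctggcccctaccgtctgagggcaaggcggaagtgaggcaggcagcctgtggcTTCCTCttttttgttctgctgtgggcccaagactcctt
Itgam chr7:128062390-128062639, plus strand: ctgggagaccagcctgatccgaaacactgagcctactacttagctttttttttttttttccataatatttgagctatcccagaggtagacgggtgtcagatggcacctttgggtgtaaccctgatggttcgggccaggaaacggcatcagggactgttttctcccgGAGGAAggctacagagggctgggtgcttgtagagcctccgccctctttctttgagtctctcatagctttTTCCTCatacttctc
Cd68 chr11:69666171-69666420, minus strand: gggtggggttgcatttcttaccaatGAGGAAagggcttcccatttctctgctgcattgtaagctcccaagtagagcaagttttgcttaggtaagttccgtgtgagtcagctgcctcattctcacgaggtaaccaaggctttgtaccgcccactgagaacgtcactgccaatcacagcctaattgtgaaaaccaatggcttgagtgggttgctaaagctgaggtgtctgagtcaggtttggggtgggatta
Lyz2 chr10:117282273-117282522, minus strand: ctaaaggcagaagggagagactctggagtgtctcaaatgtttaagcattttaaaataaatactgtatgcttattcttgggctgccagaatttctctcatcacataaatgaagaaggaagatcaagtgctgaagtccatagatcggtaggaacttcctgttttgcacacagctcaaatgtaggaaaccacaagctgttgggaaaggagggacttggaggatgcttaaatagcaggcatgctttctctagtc

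A window that also took in the 50 bases after the start was available for 7 of the 10 members. These 7 genes had 8 windows, since Ptprc had more than 1. GAGGAA on either strand occurred in 5 of the 8 and in 28.3% of all 32851 windows of that length. The matches were in Cd53, Cd68, Itgam, Laptm5 and Ptprc, but not in Fcer1g or Lyz2. The palindromic E-box CACGTG, the consensus site of Myc with its partner Max, occurred in 0 of the 8 and in 7.15% of all windows. These are matches of letters and say nothing of binding. The spaced pairs of E-boxes that are the classical sites of Mlx and its partners were not searched for.

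Depth was even, with 15986856 to 20966163 reads on genes per library, so that 3 reads, taken as the floor, were worth 0.145 to 0.196 of the deposited unit, a scaled read count called CPM. The targeted genes followed the labels: Myc was at 89.8 to 100.1 CPM in primary WT, 25.8 to 26.8 CPM in MycKO and 19.9 to 22.9 CPM in DKO libraries, and Mlx at 20.5 to 26.0 CPM in WT, 13.01 to 13.97 CPM in MlxKO and 9.73 to 12.0 CPM in DKO libraries. All 10 genes on a list of fibroblast markers were present in every group, at a summed 41348 to 60605 CPM in primary and 13844 to 31741 CPM in immortalized libraries, whereas the 10 macrophage markers summed to 54.4 to 563 CPM in primary libraries. Some libraries stood apart. In primary DKO cells, library DKO15 had each of the 10 members at 1.47 to 3.10 times the mean of the other DKO libraries, while its fibroblast markers had a median ratio of 1.00 and 1.01 to them. In primary WT cells all 10 members were ordered WT1, WT2, WT3, with a median ratio of 1.76 between WT1 and WT3 against 0.883 for the fibroblast markers. Among immortalized WT libraries, WT4 correlated with the others at 0.943 and 0.95 across genes, against 0.992 between those, and held 177 CPM of Myc against 48.1 and 39.9 CPM.

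The members that mark leukocytes in general were the first to be compared. Ptprc (ENSMUSG00000026395, GRCm39 chr1:137990599-138103446) encodes CD45, the membrane tyrosine phosphatase of all nucleated blood cells. It stood at 15.3, 12.3 and 8.59 CPM in the primary WT libraries, 7.62, 10.7 and 9.55 CPM in MlxKO, 0.998, 1.44 and 1.15 CPM in MycKO and 3.07, 2.90 and 4.38 CPM in DKO libraries. WT and MlxKO libraries overlapped, MycKO libraries lay below all others, and DKO libraries lay between, without overlap on either side. CPM is a share of the reads of a bulk library. Fewer macrophages in a culture, less RNA of these genes per macrophage and more RNA from the other cells therefore cannot be told apart.

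Laptm5 (ENSMUSG00000028581, chr4:130638161-130663452) encodes a lysosomal membrane protein of blood cells. Its levels were 65.6, 56.3 and 35.2 CPM in WT, 40.9, 44.9 and 34.3 CPM in MlxKO, 5.49, 4.71 and 3.94 CPM in MycKO and 9.45, 10.8 and 18.1 CPM in DKO libraries. The order of the groups was that of Ptprc, with WT and MlxKO overlapping and DKO between these and MycKO. Cd53 (ENSMUSG00000040747, chr3:106666177-106697530), a leukocyte tetraspanin, had the narrowest range of the 10, from 13.2, 11.5 and 8.71 CPM in WT and 7.30, 9.63 and 8.58 CPM in MlxKO to 4.49, 4.58 and 3.74 CPM in MycKO and 5.47, 4.33 and 7.43 CPM in DKO libraries. Its DKO libraries overlapped both MycKO and MlxKO libraries.

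Tyrobp and Fcer1g, the ITAM adaptors, were the next group. Fcer1g (ENSMUSG00000058715, chr1:171057141-171062219) was found at 19.8, 16.2 and 11.4 CPM in WT, 12.0, 15.3 and 14.1 CPM in MlxKO, 2.00, 1.31 and 1.54 CPM in MycKO and 2.35, 2.75 and 7.03 CPM in DKO libraries. Tyrobp (ENSMUSG00000030579, chr7:30113170-30117010) was found at 11.6, 6.57 and 3.68 CPM in WT, 4.42, 5.26 and 4.88 CPM in MlxKO, 0.887, 0.589 and 0.747 CPM in MycKO and 1.64, 1.27 and 4.49 CPM in DKO libraries. For both, MycKO libraries were the lowest and DKO15 the highest DKO library, and for Tyrobp DKO15 reached into the range of WT and MlxKO.

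The surface receptors followed the same order except Itgam. Csf1r (ENSMUSG00000024621, chromosome 18) had 63.7, 52.6 and 34.3 CPM in WT, 42.9, 49.2 and 46.3 CPM in MlxKO, 7.15, 6.28 and 7.12 CPM in MycKO and 12.98, 10.9 and 23.4 CPM in DKO libraries. Adgre1 (ENSMUSG00000004730, chr17:57665573-57790527), which encodes the F4/80 antigen of mouse macrophages, had 28.3, 22.3 and 16.7 CPM in WT, 14.7, 18.1 and 13.6 CPM in MlxKO, 2.94, 2.62 and 3.24 CPM in MycKO and 5.72, 5.18 and 12.5 CPM in DKO libraries. In both genes every DKO library lay above every MycKO and below every WT library. Of the exon bases of Csf1r, 19.8% also lie in exons of Hmgxb3 on the other strand, a gene at 48.0 to 57.5 CPM in the primary libraries, and since the strand setting of the counting was not given in the sources used here, the part of its reads in the Csf1r values was not tested.

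Itgam (ENSMUSG00000030786, chr7:127661808-127717753) encodes CD11b, the alpha chain of complement receptor 3. It had 25.9, 19.9 and 14.9 CPM in WT, 11.8, 13.6 and 14.5 CPM in MlxKO, 3.55, 2.09 and 2.04 CPM in MycKO and 10.5, 8.98 and 17.0 CPM in DKO libraries. It was the only member whose MlxKO libraries all lay below the WT libraries, and its DKO libraries spanned the MlxKO range. Of its transcript's stretches of 50 bases, 63.5% also occur in Gm49368, which was listed at 0.120 CPM or less in primary libraries, and reads that match both could be divided or lost in the counting, which makes the level of Itgam uncertain.

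The phagocyte content genes closed the list. Cd68 (ENSMUSG00000018774, chr11:69555037-69557067) encodes macrosialin of late endosomes and lysosomes. It had 21.2, 17.8 and 12.2 CPM in WT, 12.4, 11.8 and 8.11 CPM in MlxKO, 3.38, 2.22 and 1.64 CPM in MycKO and 3.12, 3.38 and 7.26 CPM in DKO libraries, so that DKO libraries overlapped MycKO libraries. Lyz2 (ENSMUSG00000069516, chr10:117111557-117118346), lysozyme M, was the most abundant, with 298, 234 and 152 CPM in WT, 166, 216 and 208 CPM in MlxKO, 47.1, 28.5 and 33.2 CPM in MycKO and 66.7, 57.1 and 142 CPM in DKO libraries. Its neighbor and near copy Lyz1 was listed at 0.103 CPM or less. Of the exon bases of Lyz2, 16.1% also lie in exons of the non-coding gene Gm67237 on the other strand, and of those of Laptm5 4.57% in Gm38599. The levels of these genes were not analysed here, and reads of the pairs cannot be told apart without the strand.

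**Figure D1:**
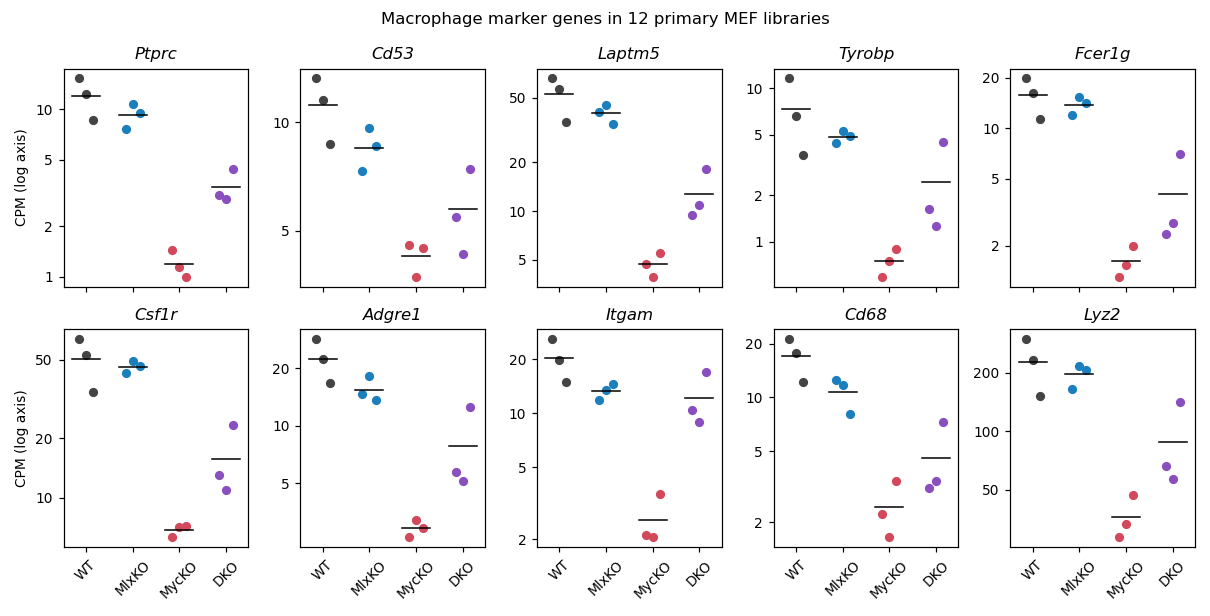
Levels of the 10 macrophage marker genes in the 12 primary MEF libraries, with CPM on a log axis, 1 point per library and a line at the mean of each group of 3. MycKO libraries are the lowest group for every gene by mean, and the highest DKO point is library DKO15 in each panel.

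Per kilobase of exon in the current annotation, the members were far from equal in WT cells. Lyz2 led with 68.6 ± 22.1 CPM per kb (SD, n = 3), followed by Fcer1g with 13.6 ± 3.62, Laptm5 with 12.5 ± 3.72, Cd68 with 12.5 ± 3.30 and Tyrobp with 10.7 ± 5.90 CPM per kb, which did not differ from each other beyond their spread. Csf1r with 6.82 ± 2.02 and Adgre1 with 6.37 ± 1.65 CPM per kb came next and were alike, as were Itgam with 3.95 ± 1.08 and Cd53 with 3.89 ± 0.793 CPM per kb. Ptprc was the lowest, at 0.642 ± 0.179 CPM per kb over an annotated exon length of 18764 bases.

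Relative to the WT mean, the group means of the members were close to each other in MycKO cells, with Cd53 apart. Of the 10, 9 stood at 8.99% (Laptm5) to 15.9% (Lyz2) of the WT mean in MycKO cells, and Cd53 at 38.3%. All 10 had every MycKO library below every WT library, where 24.6% of the 13101 genes that reached 1 CPM in 3 or more primary libraries did, and this is the contrast on which the list was chosen. In DKO cells the means ranged from 24.4% (Laptm5) to 60.1% (Itgam) of WT, and 8 of 10 members had every DKO library below every WT library, against 30.8% of all genes. In MlxKO cells they ranged from 63.2% (Cd68) to 91.8% (Csf1r), and 1 of 10 lay wholly below WT, against 14.4% of all genes. These 3 comparisons share the WT libraries.

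Summed over the 10 genes, WT cells held 437 ± 133 CPM and MlxKO cells 359 ± 37.3 CPM, whereas MycKO cells held 63.6 ± 12.7 CPM and DKO cells 157 ± 74.7 CPM (mean ± SD, n = 3). The DKO libraries were at 108, 121 and 243 CPM, the last being DKO15, and every one of them lay above the highest MycKO library at 78.0 CPM. Without DKO15 the DKO mean was 26.2% of the WT mean in place of 36.0%. Gene by gene, 8 of 10 members had every DKO library above every MycKO library, the exceptions being Cd53 and Cd68, against 18% of all genes. The DKO and MycKO values are given side by side as a description, since the MycKO libraries took part in the choice of the list.

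The proportions among the members were similar from library to library. Lyz2 made up 51.0 to 60.4% of the summed level in all 12 libraries and Csf1r 9.17 to 13.4%. Other shares differed more between groups. Fcer1g made up 3.51 to 3.90% in WT and MlxKO libraries and 1.94 to 2.89% in MycKO and DKO libraries, without overlap, and Laptm5 9.48 to 12.8% and 6.74 to 10.1% in the same groups, with overlap. The reverse was seen for Cd53, with 5.76 to 8.42% in MycKO against 2.28 to 2.93% in WT and MlxKO libraries, and Itgam, with 6.99 to 8.66% in DKO against 3.44 to 5.01% in the other libraries. The shares sum to the whole by construction, so a higher share of 1 member lowers the rest.

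Whether loss of Myc on top of loss of Mlx went with a lower level of these genes was tested by comparing primary DKO with MlxKO cells, since the rule for the list used MycKO and WT libraries. The list was nonetheless made with earlier results of all groups known, so this test is not fully independent of the choice. All 10 members were above 1 CPM in each of the 6 libraries. On the log2(CPM + 1) scale, with the 4 primary groups in a single limma fit and Benjamini-Hochberg adjustment over 13101 genes at a threshold of 0.05, 9 of the 10 members were lower in DKO cells and 0 were higher, where 25.9% of all genes tested were lower and 23.3% were higher. The median log2 difference of the members was -1.17, against -0.02 over all genes. Counted without a model, 7 of 10 had every DKO library below every MlxKO library, against 32% of all genes.

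The largest falls were those of Fcer1g, by 1.67 ± 0.26 on the log2 scale (SE, adjusted p = 5.29e-05, limma), Laptm5, by a log2 difference of -1.62 ± 0.22 (adjusted p = 1.24e-05), and Csf1r, by -1.56 ± 0.22 (adjusted p = 1.98e-05), that is, 2.95- to 3.17-fold. Lyz2 was lower by a log2 difference of -1.25 ± 0.28 (adjusted p = 0.00133, limma), Ptprc by -1.21 ± 0.19 (adjusted p = 5.23e-05), Cd68 by -1.13 ± 0.26 (adjusted p = 0.00169) and Adgre1 by -0.99 ± 0.24 (adjusted p = 0.00242). These 7 genes stayed past the threshold in each of 13 alternative settings. Tyrobp (-0.87 ± 0.31, adjusted p = 0.0292, limma) and Cd53 (-0.51 ± 0.17, adjusted p = 0.0203) passed it in 5 and 8 of the 13, with adjusted p reaching 0.147 and 0.119. Itgam had a log2 difference of -0.17 ± 0.22, with a 95% interval of -0.62 to 0.29 (adjusted p = 0.554, limma), and passed in 0 of the 13. Leaving out DKO15 made the difference larger for all 10 genes, with a median of -1.40, and the same 9 passed.

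**Figure D2:**
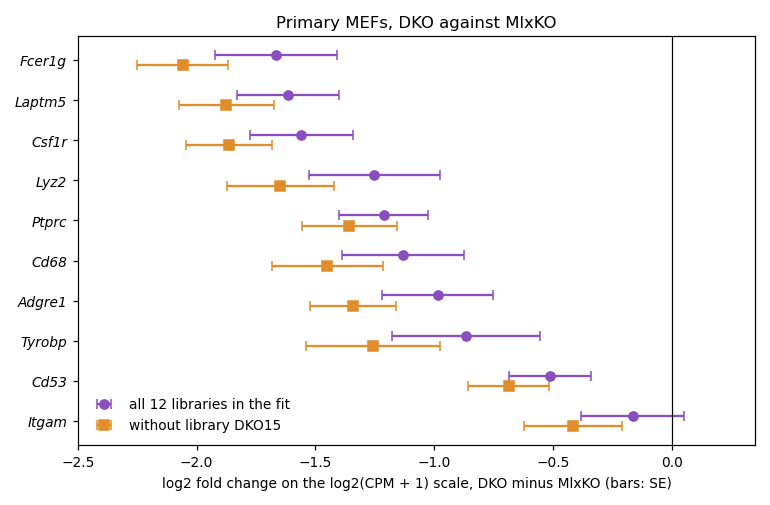
Log2 difference between primary DKO and MlxKO cells for the 10 members on the log2(CPM + 1) scale, with standard errors as bars. Circles use all 12 libraries and squares leave out DKO15, and all squares lie farther from 0 than the circles, from -2.06 for Fcer1g to -0.42 for Itgam.

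Other genes of macrophages, taken from lists by function, were mostly lower in this comparison too, in which 25.9% of all genes tested were lower and 23.3% higher. Of 8 genes of the phagocyte oxidase and lysosome, 7 were lower in DKO than in MlxKO cells (limma), with a list median of -1.29. Mpeg1, the pore-forming perforin-2 of phagocytes, went from 33.6 to 40.8 CPM in MlxKO to 11.7 to 22.2 CPM in DKO libraries, and Ctss, the lysosomal protease cathepsin S, from 15.4 to 20.2 CPM to 3.38 to 9.503 CPM. Slc11a1, the phagosomal metal transporter, had a DKO library below 1 CPM and met the filter through other groups. It did not pass with all libraries (-0.22 ± 0.31, adjusted p = 0.593, limma). Without DKO15 its log2 difference was -0.67 ± 0.26, and 8 of 8 were then counted as lower, Slc11a1 included. Among 11 tested genes of complement and scavenger uptake, 9 were lower, with a median of -1.08. They included the complement genes C1qb, C1qc and C1qa, and Cd14, the lipopolysaccharide co-receptor. Marco and Mertk, a scavenger receptor and a receptor for dying cells, did not pass (adjusted p = 0.116 and 0.194, limma). Marco, which had a DKO library below 1 CPM, leaned the other way, with a log2 difference of 0.67, and of 0.28 ± 0.33 without DKO15. Without DKO15 Mertk passed (-0.36 ± 0.13, adjusted p = 0.0406, limma) and 10 of 11 were lower.

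Among the Fc receptors and the signalling genes downstream of the ITAM adaptors, the abundant kinase Lyn differed from the rest. Of 12 tested, 9 were lower in DKO than in MlxKO cells, against 25.9% of all genes, and 3 did not pass, with a median of -1.02. Syk, the kinase recruited to ITAM motifs, had a log2 difference of -0.82 ± 0.19 (adjusted p = 0.00241, limma) and Fcgr3, a ligand-binding Fc receptor, of -1.04 ± 0.27 (adjusted p = 0.00489). Lyn, a Src-family kinase and the most abundant of the list, was at 21.2 to 24.5 CPM in MlxKO and 21.1 to 22.3 CPM in DKO libraries and did not pass (adjusted p = 0.524, limma). Of 12 tested leukocyte genes, 10 were lower, Lcp1 (L-plastin), Plek (pleckstrin) and Nckap1l among them, with a median of -0.87. Arhgdib, the most abundant of these, was at 104 to 125 CPM in MlxKO and 82.3 to 84.3 CPM in DKO libraries, and at 130 to 134 CPM in MycKO libraries, where the members were lowest. In these 4 lists, 10 of the genes tested had a DKO library below 1 CPM and met the filter through other groups. Fcgr1, Lcp2, Vav1, Ptpn6, Ncf4, Was, Cd48 and Cd37 are among them and are included in the counts of lower genes. The others are Slc11a1, counted as lower only without DKO15, and Marco, not counted as lower.

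**Figure D3:**
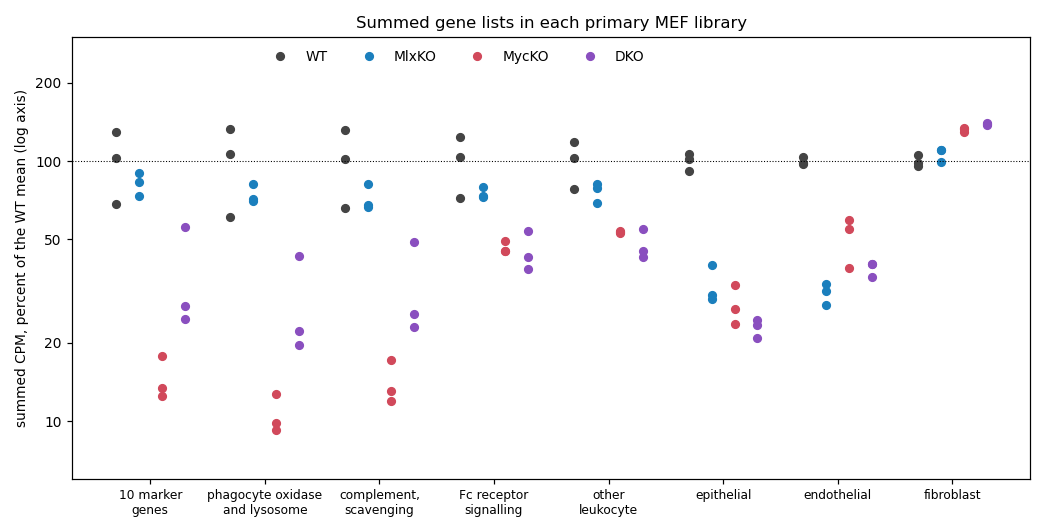
Summed CPM of gene lists in each primary library as percent of the WT mean, on a log axis, with 1 point per library. The 10 marker genes, the phagocyte oxidase and lysosome genes and the complement and scavenging genes are lowest in MycKO and higher in DKO libraries. The Fc receptor signalling genes do not follow this order, with means of 46.5% of WT in MycKO and 45.1% in DKO libraries. Nor do the other leukocyte genes, with 53.4% and 47.6%. The fibroblast markers lie above every WT library in the MycKO and DKO libraries.

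Transcription factors of the lineage did not move as a group. Spi1, which encodes PU.1, was at 8.47, 8.36 and 4.73 CPM in WT, 4.74, 5.20 and 6.52 CPM in MlxKO, 0.832, 0.327 and 0.548 CPM in MycKO and 1.33, 1.80 and 2.48 CPM in DKO libraries, the order shown by the members. It fell between MlxKO and DKO cells by 1.19 ± 0.21 on the log2 scale (adjusted p = 0.000184, limma). Irf8 and Ikzf1, regulators of myeloid and lymphoid development, met the filter through the groups in which they were higher and are given by level alone. Irf8 was at 2.72 to 4.31 CPM in MlxKO and 0.460 to 2.48 CPM in DKO libraries, and Ikzf1 at 1.80 to 2.56 CPM and 0.528 to 1.04 CPM. Runx1, required for blood stem cell formation and also expressed in mesenchyme, rose from 91.8 to 116 CPM in MlxKO to 167 to 176 CPM in DKO libraries (0.69 ± 0.08, adjusted p = 4.91e-06, limma). Nr1h3, the oxysterol receptor LXR alpha, was at 0.658 to 2.11 CPM over the primary libraries, of which 8 reached 1 CPM. Its log2 difference was 0.67 ± 0.18, but it was this close to the filter, so no call is read from it. Cebpa and Irf5 did not pass (adjusted p = 0.109 and 0.589, limma).

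The ligand of CSF1R went the other way from its receptor. Csf1 was at 531, 569 and 505 CPM in WT, 437, 443 and 449 CPM in MlxKO, 986, 903 and 994 CPM in MycKO and 923, 944 and 954 CPM in DKO libraries. It was higher in DKO than in MlxKO cells by 1.08 ± 0.06 on the log2 scale (adjusted p = 7.5e-10, limma), while Csf1r was lower in the same libraries. Il34, the second ligand, was at 1.23 to 5.71 CPM in all primary libraries and did not pass (adjusted p = 0.533, limma). The monocyte chemoattractants Ccl2 and Ccl7 were lower in DKO cells, with log2 differences of -0.52 ± 0.14 (adjusted p = 0.00544, limma) and -0.94 ± 0.12 (adjusted p = 1.12e-05). Csf2 and Csf3, the granulocyte growth factors, were under 1 CPM and were not tested in primary cells.

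**Figure D4:**
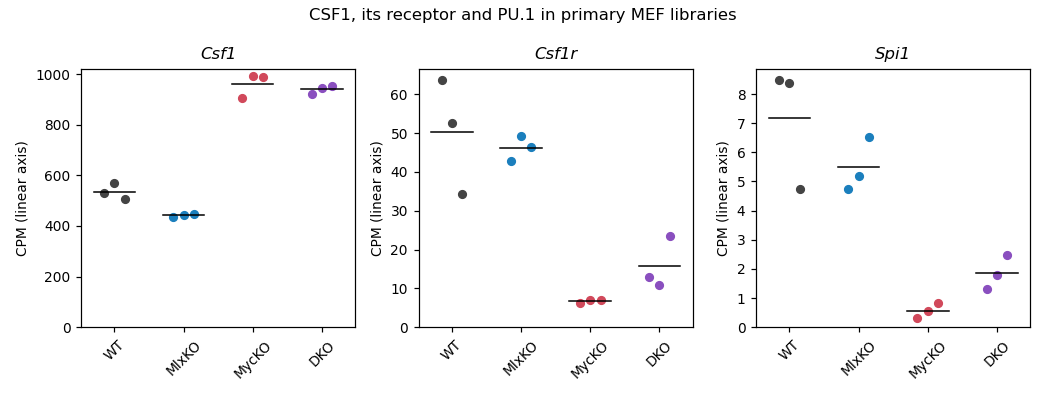
Levels of Csf1, Csf1r and Spi1 in the 12 primary libraries, with CPM on linear axes that start at 0, 1 point per library and a line at the group mean. Csf1 is highest in the MycKO and DKO libraries, in which Csf1r and Spi1 are lowest.

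Relatives of the members that are expressed in most cells, such as other lysosomal membrane proteins and tetraspanins, were called in both directions. Of 8 tested, 4 were lower in DKO than in MlxKO cells, 1 was higher and 3 did not pass, with a median of -0.14. Among all genes tested, 25.9% were lower and 23.3% higher. Without DKO15, 2 of these 8 were lower and 1 was higher. Laptm4a, a relative of Laptm5, had a log2 difference of -0.01 ± 0.08 (adjusted p = 0.936, limma), and Lamp1, a lysosomal membrane protein and relative of Cd68, of -0.23 ± 0.07 (adjusted p = 0.0124). Lamp1 was at 996 to 1361 CPM across the primary libraries, against 21.2 CPM or less of Cd68.

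Markers of most other blood cells were near 0, but those of platelets were not. The lists for T cells, B cells, neutrophils, mast cells and erythroid cells summed to 0.847 CPM or less in each primary library, and none of their 32 genes passed the filter on low values. The T-cell genes Cd3d, Cd3e and Cd2 had no read in any primary library, which allows up to 0.196 CPM in the shallowest. Platelet genes summed to 4.38 to 8.42 CPM in the primary libraries, with MycKO libraries lowest at 4.38 to 5.04 CPM. Of their 2 tested genes, Ppbp, a platelet chemokine, did not pass the test between DKO and MlxKO cells (adjusted p = 0.171, limma), and Itga2b, the platelet integrin alpha chain, was higher in DKO cells (0.60 ± 0.21, adjusted p = 0.0286) but not past the threshold without DKO15 (adjusted p = 0.128). Other lineages also differed between the groups. Epithelial genes summed to 25.8 to 30.1 CPM in WT and 5.92 to 11.2 CPM in the other primary libraries, and endothelial genes to 14.8 to 15.9 CPM in WT and 4.26 to 9.03 CPM in the others. In both lists every WT library lay above every knockout library, MlxKO included. Between DKO and MlxKO cells, 25.9% of all genes tested were lower and 23.3% higher. By the same fit, 5 of 6 tested neural and glial genes and 2 of 3 tested epithelial genes were lower and 8 of 10 fibroblast genes were higher (limma). Without DKO15 these counts were 4 of 6, 1 of 3 and 8 of 10. Gfap and Krt8, counted as lower with all libraries, had a DKO library below 1 CPM and met the filter through other groups. The muscle gene Des, which encodes desmin, was at 32.1 to 43.0 CPM in MlxKO and 76.8 to 83.2 CPM in DKO libraries and was higher in the latter (1.09 ± 0.09, adjusted p = 1.17e-07, limma), with 76.6 to 85.5 CPM in WT and 27.9 to 32.5 CPM in MycKO libraries. The part of these differences in the values of the members was not tested.

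In immortalized cells the macrophage markers were nearly gone in all 4 genotypes, WT included. Adgre1 and Tyrobp had no read in any of the 12 libraries, which allows up to 0.183 CPM, and Ptprc had a single read in 1 library. Laptm5 reached at most 0.183 CPM, Fcer1g 0.300 CPM, Lyz2 0.307 CPM, Cd53 0.153 CPM and Itgam 0.110 CPM. Among the other lists, C1qb had no read in any library, Spi1 was at 0.166 CPM or less and Mpeg1 at 0.102 to 2.9996 CPM. Primary and immortalized libraries were scaled separately and were not tested against each other.

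Csf1r remained at a low level, with 0.703, 0.166 and 1.46 CPM in WT, 0.339, 0.601 and 0.255 CPM in MlxKO, 0.204, 0.879 and 0.675 CPM in MycKO and 1.08, 0.339 and 0.884 CPM in DKO libraries. All 4 groups overlapped, and the gene missed the filter because only 2 libraries reached 1 CPM. Hmgxb3, whose exons overlap those of Csf1r on the other strand, was at 45.5 to 72.7 CPM in these libraries. Its part in the Csf1r reads was not tested.

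Cd68 was the only member that passed the filter in immortalized cells. It was at 2.28, 3.11 and 3.04 CPM in WT, 3.68, 4.65 and 3.98 CPM in MlxKO, 0.971, 0.824 and 1.01 CPM in MycKO and 4.61, 5.20 and 4.86 CPM in DKO libraries. MycKO libraries were the lowest and did not overlap any other group, whereas DKO libraries were the highest and overlapped MlxKO by 1 library. In primary cells, by contrast, Cd68 was highest in WT and its DKO libraries overlapped those of MycKO.

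By limma over 12880 genes with the 4 immortalized groups in the fit, Cd68 was lower in MycKO than in WT cells (log2 difference -0.97 ± 0.15, adjusted p = 0.000289) and held in all 13 alternatives, in a contrast in which 48% of genes were called in either direction. It was higher in DKO than in MycKO cells (1.61 ± 0.15, adjusted p = 7.7e-06), also in all 13 alternatives, where 29.4% of genes were called. It was higher in DKO than in WT cells (0.63 ± 0.15, adjusted p = 0.0133, 18.9% of genes called) and in MlxKO than in WT cells (0.42 ± 0.15, adjusted p = 0.0411, 38.9% of genes called), but these calls held in 10 and 5 of 13 alternatives, with adjusted p up to 0.0683 and 0.157. The calls against MycKO cells were thus the stable ones, but they rest on a group with 15 to 19 reads of Cd68 per library. Its MycKO libraries at 0.824 and 0.971 CPM were under the 1 CPM of the filter, which the gene met through the other groups. DKO and MlxKO cells differed by 0.21 ± 0.15, with a 95% interval of -0.12 to 0.54 (adjusted p = 0.311, limma), in a contrast in which 30.1% of genes were called. Without the WT library that stood apart, the 3 contrasts with WT stayed past the threshold, with log2 differences of -0.92, 0.68 and 0.47 for MycKO, DKO and MlxKO cells.

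**Figure D5:**
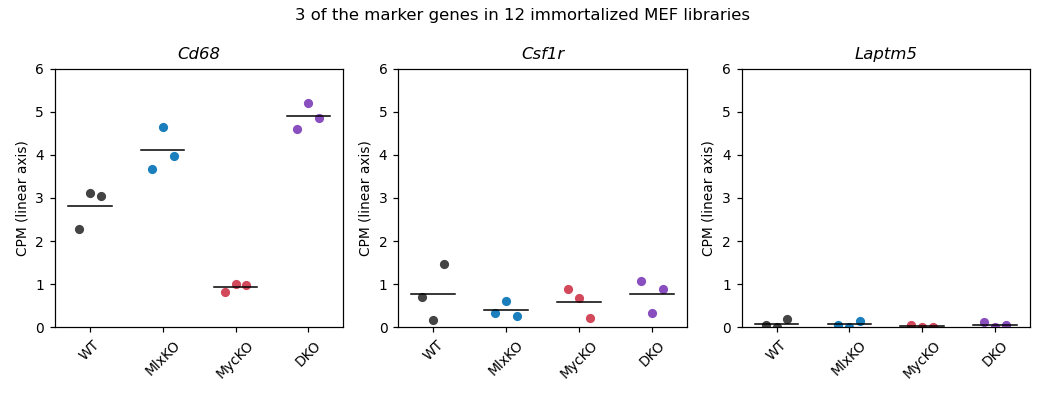
Levels of Cd68, Csf1r and Laptm5 in the 12 immortalized libraries on a common linear axis of CPM from 0, with 1 point per library and a line at the group mean. Cd68 lies between 0.824 and 5.20 CPM with MycKO lowest, and the highest Laptm5 point is at 0.183 CPM.

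Whether the difference of Cd68 that went with Myc loss was alike with and without Mlx was tested directly as an interaction. In immortalized cells the difference between DKO and MlxKO cells exceeded that between MycKO and WT cells by 1.18 ± 0.21 on the log2 scale (95% interval 0.72 to 1.64, adjusted p = 0.000901, limma), where 47.4% of genes were called. It was 1.13 ± 0.22 without library WT4. Both values rest in part on MycKO libraries with Cd68 at 0.824 to 1.01 CPM, and the gene met the filter of 1 CPM through the other groups. Csf1, by contrast, was higher in both Myc-deficient settings, at 597 to 713 CPM in MycKO against 245 to 325 CPM in WT libraries (1.24 ± 0.12, adjusted p = 8.36e-06, limma) and at 564 to 618 CPM in DKO against 302 to 325 CPM in MlxKO libraries (0.90 ± 0.12, adjusted p = 0.000237), while none of the macrophage-restricted members was present at a level that could be tested.

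The genes whose levels most resembled those of the members across the 12 primary libraries were found by Pearson correlation with the mean standardized level of the members. They were Mpeg1 (r = 0.996), Lcp1 (r = 0.994), Fermt3, Lilr4b, Ncf1, Coro1a, Ctss, Tlr13, Stab1 and Plek (r = 0.991), and 96 of 13091 other genes exceeded 0.95. Among the members themselves r ran from 0.994 for Adgre1 to 0.927 for Itgam. These values describe libraries that share groups, scaling and the low MycKO level on which the list was chosen. Mpeg1 had mean levels of 51.3 and 36.4 CPM in WT and MlxKO cells and of 5.41 and 15.5 CPM in MycKO and DKO cells, and Stab1, a scavenger receptor, of 30.2, 20.8, 3.65 and 8.75 CPM in the same order.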

How the data were processed

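RNA was isolated in triplicate from 4 genotypes of primary and of immortalized MEFs. Per the labels and the study's methods, the authors made directional poly-A libraries, sequenced them on a NovaSeq instrument and mapped reads with CLC Genomics Workbench to GRCm39. For primary and for immortalized cells the authors deposited a separate table of a signal called CPM, with 41710 genes in 12 libraries each. Its sums differed between libraries, so it was taken as scaled already. The step between values gave whole reads for 100% of values above 0 (tolerance 0.01). The design had assumed plain CPM. The annotation and strand setting of the counting are not given in the sources used here. With 3 libraries per group their number limits the precision, and the 3-read floors cover counting error only, while the 95% intervals come from the spread between libraries in the limma fit. The members and gene lists were chosen with earlier results of these data known.

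From the deposited signal, log2(CPM + 1) was fitted with limma 3.58.1 (R 4.3.3, trended variance, 4 groups of a table per fit) for genes that reached 1 CPM in 3 or more of 12 libraries. Benjamini-Hochberg adjusted p under 0.05 was the threshold. A fold change on this scale understates that of low genes. Alternatives were a pseudocount of 0.1, no filter, count models on the recovered reads (edgeR 4.0.16, DESeq2 1.42.0), 2 groups per fit, other scalings and the omission of each library. The fits were tested on simulated data with 200 changed genes. Named were all members, the most abundant 2 to 4 genes of each list, the transcription factors, the CSF1 axis and the 10 genes most like the members. Slc11a1, Marco and Mertk, and Syk in immortalized cells, were named after their values were seen. Positions are from GENCODE vM39 (GRCm39), in which 41181 of 41710 identifiers were found, and promoter windows from RefSeq (GRCm38.p6).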

Additional observations from a re-analysis of the deposited data

Results flagged for a closer look

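The Myc-by-Mlx interaction of Cd68 in immortalized cells stood out because the effect of the same deletion differed between 2 backgrounds by a direct test. Loss of Myc went with a log2 difference of -0.97 in cells with Mlx and of 0.21 in cells without it, which gives an interaction of 1.18 (Benjamini-Hochberg adjusted p = 0.000901, limma, range 0.000607 to 0.00375 over 15 alternatives that were chosen after the data were seen). All 3 MycKO libraries lay below all 3 WT libraries, and 2 of 3 DKO libraries lay above all 3 MlxKO libraries. In the MycKO libraries Cd68 was at 0.824 to 1.01 CPM, so it met the filter of 1 CPM through the other groups. Across all immortalized libraries 47.4% of genes had an interaction past the threshold. With 3 libraries per group, no group was large enough to be searched for outlying samples by a test.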

How the results depend on the processing

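The count of 9 members lower in primary DKO than MlxKO cells ranged from 7 to 9 over all alternatives, Tyrobp and Cd53 being those lost. Itgam turned to a log2 difference of 0.0099 without DKO14 and was at -0.42 without DKO15. The former was the only change of sign among 210 single-gene values, of which 185 kept direction and side of the threshold. In immortalized cells the call of Cd68 in MlxKO against WT went from 1 gene to 0 with a pseudocount of 0.1, no filter, edgeR, DESeq2, only the 2 groups compared, and without WT2, MlxKO6 or MlxKO7 (range 0 to 1), and that in DKO against WT to 0 with only the 2 groups compared and without WT2 or DKO14 (range 0 to 1). Without a filter, MycKO against WT gave 3 genes (Cd68, Cd53 and Lyz2) and DKO against MycKO 2 (Cd68 and Cd53), the added ones at 0.307 CPM or less. The cause was not tested.

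The members' median log2 difference from WT in primary MycKO cells was -2.56 and moved to -2.90 with a pseudocount of 0.1. In MlxKO cells it was -0.34 and ranged from -0.56 without WT3 to -0.15 without WT1, and their summed level from 70.9% without WT3 to 96.1% of WT without WT1. In DKO cells the median of -1.51 and the sum of 36.0% stayed within the spread between libraries. In immortalized cells the sums were 49.9%, 127% and 155% of WT in MycKO, MlxKO and DKO cells. They were 83.5%, 67.2% and 93.8% without Cd68 and Lyz2, and ranged from 45.7 to 58.9%, 115 to 149% and 142 to 183% with a library left out, the highest in each case without WT4. No paired analysis was possible because no label links the number in a column's name to a replicate number. At this depth, levels under 0.145 to 0.196 CPM could not be told from 0.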

Other observations

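Syk, the kinase recruited to ITAM motifs, rose in immortalized MycKO cells, in which the Fc receptors, TREM2 and dectin-1 genes and both adaptor genes of that pathway were at 0.398 CPM or less. It was at 9.13 to 16.5 CPM in WT and 32.2 to 35.7 CPM in MycKO libraries (log2 difference 1.33 ± 0.19, adjusted p = 0.000189, limma), where 48% of all genes were called in either direction. MlxKO libraries were at 12.8 to 18.4 CPM and DKO libraries at 22.1 to 26.0 CPM, so that MycKO libraries lay above all others. Syk was named here after its values were seen.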
